A study of Homo sapiens with 6 samples.

Results

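The genes described here encode the proteins of the mitochondrial ribosome, the MRPL and MRPS families. They were taken as every gene whose symbol in the platform's probe annotation is MRPL or MRPS followed by a number and at most 1 letter. Only probe sets with 1 symbol were used. This rule gave 76 of the 18265 genes compared. Of these, 48 have an MRPL symbol, named for the large subunit, and 28 an MRPS symbol, named for the small subunit. MRPL53 is not among them, because its probe sets are also assigned to CCDC142. Gene expression was measured with a 1-colour Affymetrix array in A549, a cell line grown from a human lung adenocarcinoma, after the cells had received a lentivirus with a short hairpin RNA, a transcript processed into a small RNA that lowers a matching mRNA. In the group labelled shTIGD1 (3 arrays) the hairpin was directed at TIGD1, a gene that descends from the transposase of a pogo-like element, and in the group labelled shControl (3 arrays) it carried a control sequence. Each group rests on 1 hairpin sequence, so that an effect of the hairpin and one of its intended target cannot be told apart. Whether the numbered arrays of a group came from separate cultures is not in the labels, so p-values measure the spread between these arrays, which may be technical.

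The mitochondrial ribosome translates the few mRNAs that mitochondrial DNA encodes, all of them for subunits of the respiratory chain and ATP synthase. Its rRNAs come from mitochondrial DNA, while all of its proteins are encoded in the nucleus, made on cytosolic ribosomes and imported. Many of these proteins have counterparts in bacterial ribosomes, and others, the mitochondria-specific proteins, were added during the evolution of mitochondria. MRPS18A and MRPS30 carry small subunit names but sit in the large subunit in structures of the human mitochondrial ribosome.

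The target sequences of both hairpins, 19 bases each as the labels give them, are shown because they define the groups; shNC is the sequence of the group labelled shControl.
shTIGD1: ctgctaacacaacatccat
shNC: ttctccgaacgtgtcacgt

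The targeted gene did not pass the test. The single TIGD1 probe set read log2 signals of 6.88, 6.84 and 6.86 on the arrays labelled shTIGD1, against 6.96, 6.93 and 6.85 on those labelled shControl. The log2 difference was -0.06 (95% interval -0.16 to 0.04, limma adjusted p = 0.389), and the groups overlapped. The groups are therefore called by their labels throughout. The line's keratins KRT8, KRT18, KRT7 and KRT19 did not pass the test with their brightest probe sets, while the epithelial adhesion genes CDH1 (0.66) and EPCAM (0.87) rose on the log2 scale, 2 of 6 epithelial markers higher and 0 lower. All 6 had a mean log2 signal of at least 5 in both groups (summed log2 signal 70.7 to 71.0 on the arrays labelled shTIGD1 and 69.2 to 69.3 on those labelled shControl). The part of these markers in the results below was not tested. Of 8 immune markers measured 3 reached that level in each group (summed log2 signal 41.2 to 41.7 on the arrays labelled shTIGD1 and 41.4 to 42.3 on those labelled shControl; 0 higher and 1 lower, ITGAM, -0.19). Of 5 endothelial markers it was reached by 2 in the group labelled shTIGD1 and by 4 in the group labelled shControl. Their sums were 25.2 to 25.9 and 25.9 to 26.0, with 0 higher and 0 lower by their brightest probe sets. CDH5 (4.89 and 5.01) and PECAM1 (4.94 and 5.04) lay on either side of that level and did not pass. A dimmer probe set fell in CDH5 (-0.47) and in VWF, and a dimmer one rose in KDR (0.18). Of 6 fibroblast markers the level was reached by 3 and 2 (sums 26.8 to 27.1 and 26.9 to 27.9, with 0 higher and 1 lower, COL3A1, -0.56).

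With values as deposited, most mitochondrial ribosomal protein genes differed little between the groups. In the MRPL family 4 of 48 genes rose and 6 fell, and in the MRPS family 2 of 28 rose and 4 fell, with values as deposited (limma, Benjamini-Hochberg adjusted p under 0.05 over all genes). Together 16 of 76 passed (21.1%), where 23.8% of all genes did. For rises the share was 7.89% of the members against 9.79% of all genes, and for falls 13.2% against 14.0%. The members are bright, with mean log2 signals from 7.71 to 12.07, and among the 7597 genes at least as bright as the dimmest of them 38.4% passed, 22.4% as lower and the others as higher. The share of members past the test was thus below that of bright genes and near that of all genes. With trend and robust variance settings of limma 31 of 76 members passed (40.8%), 9 MRPL genes higher and 11 lower and 3 MRPS genes higher and 8 lower. Of all genes 31.8% then passed, 13.4% as higher and 18.4% as lower, and of the bright genes 55.6%. In that fit the members' share lay above that of all genes and below that of bright genes.

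The median log2 change was -0.01 for the MRPL and -0.03 for the MRPS genes, and -0.04 over all genes. The quartiles were -0.07 and 0.05 for the MRPL genes and -0.08 and 0.03 for the MRPS genes, against -0.13 and 0.06 for all genes. Precision was high for these genes, with standard errors of the log2 change between 0.03 and 0.05. For 69 of 76 members (90.8%) the whole 95% interval lay within a 1.2-fold change in either direction, with values as deposited. This held for 52.4% of all genes and for 66.4% of the genes at least as bright as the dimmest member. The 7 others were MRPL33, MRPL42, MRPL50, MRPL38, MRPS25, MRPS5 and MRPS2. In 39 members (51.3%) every array of one group was above every array of the other, where 42.3% of all genes and 65.0% of the bright genes showed this. The plot of log2 changes with their intervals shows 3 MRPL genes standing apart from the others on the high side.

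**Figure D1:**
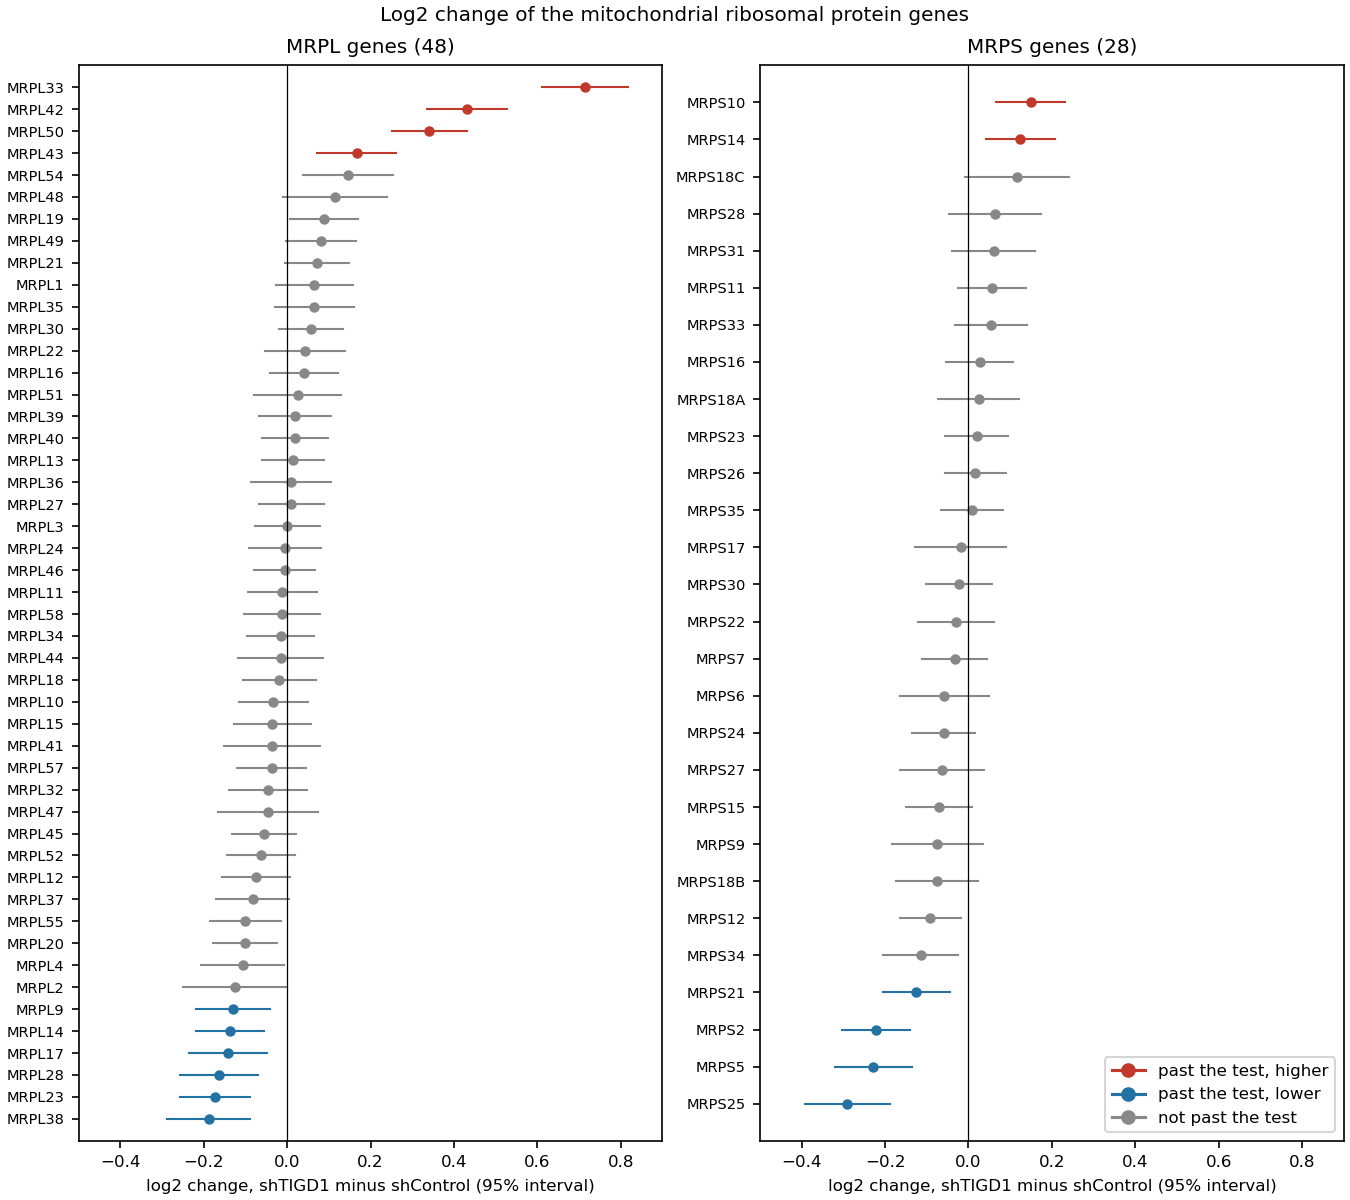
Log2 change (shTIGD1 minus shControl, x axis) of each MRPL gene (left) and MRPS gene (right), with limma's 95% interval as a line, from 3 arrays per group. Red points rose and blue points fell past an adjusted p of 0.05, grey points did not pass; MRPL33 (0.71), MRPL42 (0.43) and MRPL50 (0.34) lie to the right of all others.

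MRPL33, the counterpart of bacterial ribosomal protein L33, had the largest change of the family. It read 11.14, 11.14 and 11.08 on the arrays labelled shTIGD1, against 10.35, 10.41 and 10.46 on those labelled shControl. Every array labelled shTIGD1 was above every array labelled shControl. Its mean was 11.12 ± 0.04 on the arrays labelled shTIGD1 and 10.41 ± 0.06 on those labelled shControl (SD, n = 3 each). This was a 1.64-fold rise with a 95% interval of 52.8% to 76.2% (limma adjusted p = 0.000359). All 3 probe sets assigned to MRPL33 alone rose, by 0.71, 0.77 and 0.68 on the log2 scale. The annotation assigns another 2 probe sets to both MRPL33 and BABAM2, which encodes a member of the BRISC and BRCA1-A deubiquitinase complexes. These changed by -0.06 and -0.04 on the log2 scale (adjusted p = 0.358 and 0.576), and the only probe set assigned to BABAM2 alone fell by 0.17 (adjusted p = 0.0132). The shared probe set at -0.06 was brighter than the one that stands for MRPL33. Its means were 11.42 on the arrays labelled shTIGD1 and 11.48 on those labelled shControl. Which of both transcripts the shared probe sets measured was not tested.

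MRPL42 and MRPL50 are mitochondria-specific proteins of the large subunit. MRPL42 read 9.99, 9.97 and 9.97 on the arrays labelled shTIGD1, against 9.59, 9.48 and 9.56 on those labelled shControl. The groups were apart, and the rise was 1.35-fold (log2 change 0.43, SE 0.04, limma adjusted p = 0.00130). Its 3 probe sets rose by 0.43, 0.54 and 0.32. MRPL50 read 9.40 on each array labelled shTIGD1, against 9.02, 9.11 and 9.04 on those labelled shControl. It rose 1.27-fold (log2 change 0.34, SE 0.04, limma adjusted p = 0.00210), and its 2 probe sets rose by 0.34 and 0.54. For MRPL33, MRPL42 and MRPL50 the call held in each of 6 fits that left out 1 array, with log2 changes of 0.69 to 0.74, 0.40 to 0.46 and 0.32 to 0.37.

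**Figure D2:**
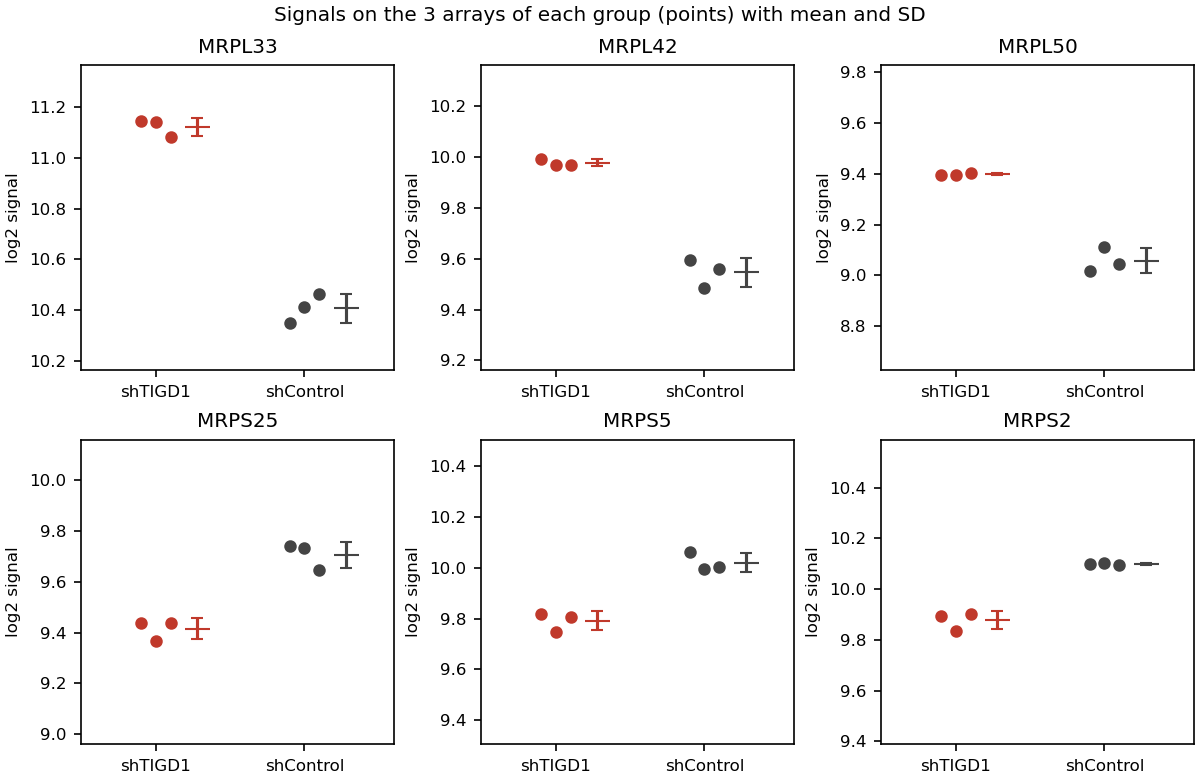
Log2 signal (y axis) of the 3 genes with the largest rise (top) and the 3 with the largest fall (bottom) on the 3 arrays of each group, with mean and SD beside the points; each panel spans the same range of 1.2 on the log2 scale. In all 6 genes the arrays labelled shTIGD1 (red) and shControl (dark) do not overlap, and the gap is widest in MRPL33 (11.12 against 10.41).

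The remaining rises were small. MRPL43, a mitochondria-specific protein of the large subunit, read 10.72, 10.61 and 10.68 on the arrays labelled shTIGD1, against 10.50, 10.52 and 10.50 on those labelled shControl (log2 change 0.17, SE 0.04, limma adjusted p = 0.0267). Its 3 brightest probe sets rose, by 0.17, 0.16 and 0.20, while the 3 dimmer ones read -0.10, -0.20 and -0.12 and did not pass. MRPS10, the counterpart of bacterial S10, read 9.78, 9.83 and 9.82 on the arrays labelled shTIGD1, against 9.64, 9.69 and 9.64 on those labelled shControl. It rose by 0.15 with its brightest probe set (adjusted p = 0.0255) and by 0.31 and 0.34 with the others. The groups of MRPS10 were apart, and the dimmer probe sets showed the larger rise. MRPS14, the counterpart of bacterial S14, read 9.91, 9.87 and 9.90 on the arrays labelled shTIGD1, against 9.75, 9.80 and 9.75 on those labelled shControl (log2 change 0.12, adjusted p = 0.0421), and adjusted over all probe sets none of its 3 probe sets passed. Of 6 fits that left out 1 array MRPL43 and MRPS10 passed in 1 and MRPS14 in 0.

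The falls were led by small subunit genes. MRPS25, a mitochondria-specific protein of the small subunit, read 9.44, 9.37 and 9.44 on the arrays labelled shTIGD1, against 9.74, 9.73 and 9.65 on those labelled shControl. The groups were apart and the change was -18.2% (95% interval -23.8% to -12.2%, limma adjusted p = 0.00531). Its other 4 probe sets, all dimmer, read -0.16, -0.11, 0.09 and 0.04 on the log2 scale and did not pass. MRPS5, the counterpart of bacterial S5, which lies near the decoding site in bacteria, read 9.82, 9.75 and 9.81 on the arrays labelled shTIGD1, against 10.06, 9.99 and 10.00 on those labelled shControl (-14.6%, adjusted p = 0.00844). Its 2 dimmer probe sets read -0.09 and -0.06 and did not pass. MRPS2, the counterpart of bacterial S2, has 1 probe set, which read 9.89, 9.84 and 9.90 on the arrays labelled shTIGD1, against 10.10, 10.10 and 10.10 on those labelled shControl (-14.3%, adjusted p = 0.00623). All 3 calls held in each of 6 fits that left out 1 array.

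In the large subunit the falls reached at most 12.2%. MRPL38, a mitochondria-specific protein, read 9.28, 9.19 and 9.25 on the arrays labelled shTIGD1, against 9.47, 9.43 and 9.39 on those labelled shControl (log2 change -0.19, limma adjusted p = 0.0213), and both of its probe sets fell. MRPL23, the counterpart of bacterial L23 at the exit of the peptide tunnel, read 10.99, 10.95 and 11.02 on the arrays labelled shTIGD1, against 11.15, 11.16 and 11.17 on those labelled shControl (-0.17, adjusted p = 0.0155). Their groups were apart. MRPL28, the counterpart of bacterial L28, read 11.81, 11.73 and 11.79 on the arrays labelled shTIGD1, against 11.92, 11.93 and 11.98 on those labelled shControl (-0.16, adjusted p = 0.0268), and its 3 probe sets all fell. MRPL17 (-0.14), MRPL14 (-0.14) and MRPL9 (-0.13), counterparts of bacterial L17, L14 and L9, and MRPS21 (-0.13), the counterpart of bacterial S21, also passed, with adjusted p between 0.0300 and 0.0475. Adjusted over all probe sets, the same probe sets of MRPL17, MRPL9 and MRPS21 did not pass (adjusted p = 0.0543, 0.0612 and 0.0539). The other MRPL17 probe set read 0.07 and none of the 4 of MRPS21 passed, while a dimmer one of MRPL9 fell by 0.16. MRPL17 read 10.53, 10.52 and 10.61 on the arrays labelled shTIGD1, against 10.70, 10.72 and 10.67 on those labelled shControl. MRPL14 read 10.23, 10.16 and 10.19 on the arrays labelled shTIGD1, against 10.35, 10.32 and 10.33 on those labelled shControl. In both genes the groups were apart by less than 0.2 on the log2 scale. Of 6 fits without 1 array MRPL23 passed in 5, MRPL38 in 2, MRPL17 in 1, and MRPL28, MRPL14, MRPL9 and MRPS21 in 0.

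The direction of the falls and the size of the changes of all members depended on the scaling of the arrays. Levelling on the hybridization controls added 0.21 to the median log2 change of all genes, and levelling on the poly-A controls added 0.33. Under the first scaling 73 of 76 members lay above 0, and under the second all 76 did. Of all genes 47.8% then passed as higher and 1.98% as lower under the first, and 76.5% and 0.652% under the second. MRPS25, MRPS5 and MRPS2 read -0.08, -0.02 and -0.01 on the hybridization controls and 0.04, 0.10 and 0.11 on the poly-A controls, and none of these passed. MRPL33 (0.92 and 1.05), MRPL42 (0.64 and 0.77) and MRPL50 (0.55 and 0.67) stayed past the test under both. Each control scaling adds a positive shift to every gene, so it could not turn a rise and does not test these. Set against the median of all genes as deposited, MRPL33 stood 0.75 above and MRPS25 0.25 below on the log2 scale. The array labelled shTIGD1 replicate 2 was the lowest of its group in 50 of 76 members (65.8%). This held for 37.8% of all genes and for 47.0% of the genes at least as bright as the dimmest member. Its part in the falls was not tested beyond leaving it out. That gave 4 rises and 1 fall among the MRPL genes and 0 rises and 3 falls among the MRPS genes. Leaving out this array kept 4 of the 10 falls of members, and leaving out any other single array kept 4 or 5.

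Of the 46 members with a bacterial counterpart 3 rose and 8 fell (median log2 change -0.03), and of the 30 mitochondria-specific members 3 rose and 2 fell (median 0.00). The shares past the test were 23.9% and 16.7%, where 23.8% of all genes passed. In this split MRPS18A and MRPS18B (-0.08) were counted as mitochondria-specific and MRPS18C (0.12) as having a bacterial counterpart, and none of these passed. With MRPS18A (0.02) and MRPS30 (-0.02) counted in the large subunit, where neither passed, the median was -0.01 for 50 large subunit genes and -0.03 for 26 small subunit genes. The genes of the stalk that binds translation factors were not called by their brightest probe set, with MRPL10 at -0.03, MRPL11 at -0.01 and MRPL12 at -0.07. A dimmer MRPL12 probe set fell by 0.15. MRPL58, a release factor relative built into the large subunit, read -0.01 (95% interval -0.10 to 0.08).

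A gene's brightest probe set with 1 symbol stood for it, and other probe sets can read other transcript forms. Probe sets shared with another symbol were left out, also where they were brighter, as in MRPL33, MRPS28, MRPS17 and MRPL45. The members had 163 probe sets with 1 symbol, 31 genes with 1 and 45 with several. Tested singly, 9.82% of the members' probe sets rose and 10.4% fell, where 11.7% and 10.8% of all probe sets with 1 symbol did. No member had probe sets past the test in both directions. All probe sets with 1 symbol rose in MRPL33, MRPL42, MRPL50 and MRPS10, and all fell in MRPL28 and MRPL38. The probe sets that MRPL33 shares with BABAM2 did not pass (-0.06 and -0.04). In this test the brightest probe set of 64 members did not pass. Of these 2 had a dimmer one that rose, MRPL30 (0.25) and MRPL18 (0.17), and 7 had one that fell, of which MRPL52 (-0.27), MRPS11 (-0.24) and MRPS27 (-0.20) changed most. Of the 76 brightest probe sets 17 have an identifier that marks probes shared with other transcripts, those of MRPL33 and MRPL42 among them. Whether other transcripts took part in those signals was not tested.

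**Figure D3:**
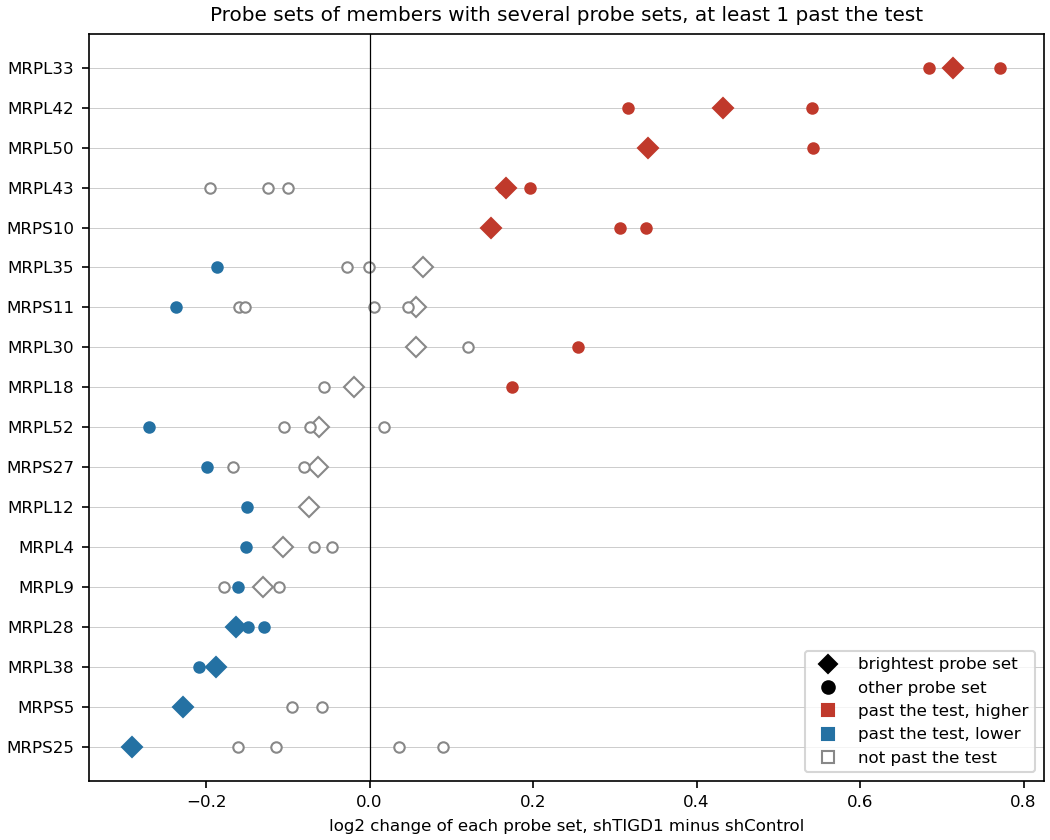
Log2 change (shTIGD1 minus shControl, x axis) of every probe set with 1 symbol of 18 members (y axis). These members have several such probe sets and at least 1 past the test. Diamonds are the brightest of these probe sets of a gene, circles the others, and filled symbols passed an adjusted p of 0.05 over all probe sets. The probe sets of MRPL33 lie together between 0.68 and 0.77, while those of MRPS25 spread from -0.29 to 0.09.

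Letters of known binding motifs were counted in windows from 250 bases before to 50 after each annotated transcript start (RefSeq, GRCh38.p14). GABPA and YY1 are transcription factors known to act at promoters of nuclear genes for mitochondrial proteins. Of 76 members 68 had a window, and MRPL2, MRPL10, MRPL13, MRPL15, MRPL21, MRPL23, MRPL35 and MRPS28 had none in the table used. CCGGAAG, a core of the GABPA motif, stood on either strand in the windows of 29 of 68 members (42.6%), against 16.9% of 14510 tested genes. ATGGCG, a core of the YY1 motif, stood in 33 (48.5%), against 17.5%. The NRF1 motif, searched without mismatch, stood in 9 members (13.2%), against 10.1% of the genes, and the E-box CACGTG also in 9 (13.2%), against 10.9%. Each motif was searched on both strands, a gene with several starts counted if any window held it, and matches that overlap were kept for each motif. A match is a description of the letters and not a site of binding.

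CCGGAAG was held by 3 of 6 members that rose, 3 of 9 that fell and 23 of 53 that did not pass, and ATGGCG by 4, 4 and 25 of them. The windows of the 3 largest rises and 3 largest falls are printed from 120 bases before to 35 after the first listed start, 5′ to 3′, with the motif letters in capitals, to show where these letters lie in genes that moved in either direction. They are MRPL33 (chr2:27771599-27771753 on the plus strand), MRPL42 (chr12:93467394-93467548 on the plus strand), MRPL50 (chr9:101398584-101398738 on the minus strand), MRPS25 (chr3:15065281-15065435 on the minus strand), MRPS5 (chr2:95121774-95121928 on the minus strand) and MRPS2 (chr9:135500562-135500716 on the plus strand), all on GRCh38.p14.
MRPL33: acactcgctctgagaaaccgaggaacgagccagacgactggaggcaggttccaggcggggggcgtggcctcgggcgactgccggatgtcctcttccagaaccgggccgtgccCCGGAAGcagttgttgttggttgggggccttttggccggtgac
MRPL42: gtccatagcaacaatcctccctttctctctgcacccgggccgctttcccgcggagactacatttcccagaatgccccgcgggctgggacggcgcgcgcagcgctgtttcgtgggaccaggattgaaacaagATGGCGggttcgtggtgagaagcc
MRPL50: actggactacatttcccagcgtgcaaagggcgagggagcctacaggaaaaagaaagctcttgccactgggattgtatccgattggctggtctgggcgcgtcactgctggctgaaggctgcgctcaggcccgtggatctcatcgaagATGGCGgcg
MRPS25: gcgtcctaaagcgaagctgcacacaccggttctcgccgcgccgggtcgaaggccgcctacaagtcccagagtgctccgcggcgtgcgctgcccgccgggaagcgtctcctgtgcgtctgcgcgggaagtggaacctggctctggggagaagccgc
MRPS5: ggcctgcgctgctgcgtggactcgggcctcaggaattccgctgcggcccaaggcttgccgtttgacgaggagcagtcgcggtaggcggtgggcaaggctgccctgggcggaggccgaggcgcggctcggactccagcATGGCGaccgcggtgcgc
MRPS2: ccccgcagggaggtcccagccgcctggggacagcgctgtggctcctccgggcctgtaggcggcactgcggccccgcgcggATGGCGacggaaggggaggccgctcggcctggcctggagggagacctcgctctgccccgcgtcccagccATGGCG
CCGGAAG began 8 bases before the start in MRPL33. ATGGCG began at base 12 after the start in MRPL42, 27 in MRPL50, 18 in MRPS5 and 30 in MRPS2, where it also began 40 bases before the start. In this stretch of MRPS25 none of the 4 motifs was found.

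The lists of genes that act with the mitochondrial ribosome held more falls than rises with values as deposited, as did all genes (14.0% lower and 9.79% higher) and the bright genes (22.4% lower). The lists are small, and no difference from that background was tested. Genes of the lists are counted by their brightest probe set. Among 25 assembly and rRNA modification factors 1 rose and 6 fell (median log2 change -0.07). RPUSD4, which makes a pseudouridine in the large mitochondrial rRNA, had a larger change than any ribosomal protein gene of the organelle. It read 8.50, 8.49 and 8.60 on the arrays labelled shTIGD1, against 7.59, 7.66 and 7.57 on those labelled shControl, a 1.90-fold rise (log2 change 0.92, SE 0.05, limma adjusted p = 0.000236). Its 3 probe sets rose by 0.92 to 1.16. The groups were far apart against their spread. The largest falls were in NOA1, a GTPase of small subunit assembly (-0.35, adjusted p = 0.00220), in MRM1 and MRM3, methyltransferases of the large rRNA (-0.25 and -0.18), and in MTERF3 (-0.17).

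Of 15 translation factors and activators 0 rose and 6 fell (median -0.10). They include MTRFR, which rescues stalled ribosomes (-0.22), the release factor MTRF1L (-0.20) and OXA1L, which inserts new proteins into the inner membrane (-0.20). Of the 4 probe sets of MTRF1L 2 fell, and the others read 0.10 and 0.16 and did not pass. TSFM, MTRF1 and GFM1 did not pass with their brightest probe sets, but each had a dimmer one that rose (0.80, 0.29 and 0.21). LRPPRC, which stabilises mitochondrial mRNAs, read -0.29 with its brightest probe set, but another of its 4 probe sets rose by 0.18, and no direction is given for it. Among 16 mitochondrial tRNA synthetases 1 rose, NARS2 (0.24), and 6 fell, led by VARS2 (-0.31), CARS2 (-0.26), LARS2 (-0.22) and YARS2 (-0.20; list median -0.05). Of 10 genes that replicate or transcribe mitochondrial DNA 0 rose and 4 fell (median -0.06). These were the polymerase subunit POLG2 (-0.30), the RNA polymerase POLRMT (-0.29), the helicase TWNK (-0.25) and TFAM (-0.16).

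Among 10 regulators of nuclear genes for mitochondria 0 rose and 3 fell (median -0.07), the coactivator PPRC1 (-0.32), NRF1 (-0.24) and ESRRA (-0.15). GABPA read 0.22 (adjusted p = 0.120) and YY1 -0.05 (adjusted p = 0.394) with their brightest probe sets. YY1 has 7 probe sets, of which 2 dimmer ones fell, by 0.30 and 0.19, and 5 did not pass, so that no direction is given for it. NRF1 has 4 probe sets, of which 1 fell and 3 did not pass. GABPB1 had a dimmer probe set that fell (-0.40) and another that rose (0.32), and 1 of the 4 probe sets of PPARGC1A rose. Of the 4 measured subunits of the mitochondrial ribosome with other names 0 rose and 1 fell, DAP3 (-0.12, adjusted p = 0.0347; list median -0.01). PTCD3, another of them, had 6 probe sets, of which 1 rose and 2 fell. The 13 proteins encoded by mitochondrial DNA matched 0 of the tested genes and were not analysed here. Of the falls named from these lists, those other than NOA1 (-0.02) turned to values above 0 under poly-A control scaling. RPUSD4 and NARS2 stayed past the test as higher under both control scalings, whose positive shift could not turn a rise.

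**Figure D4:**
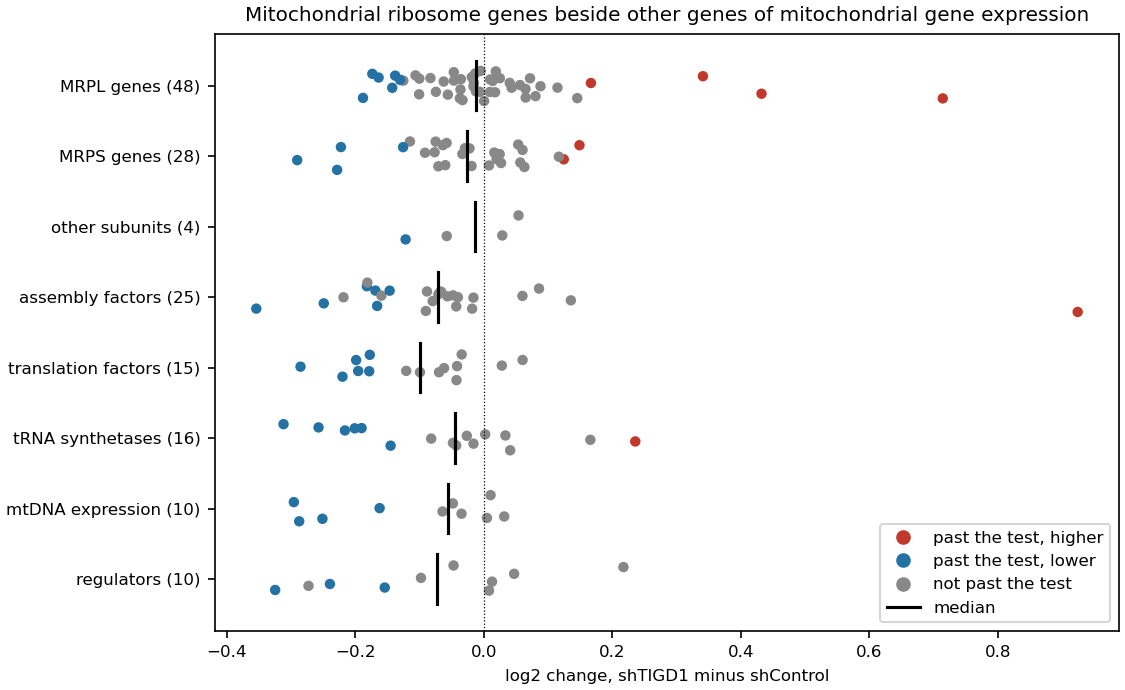
Log2 change (shTIGD1 minus shControl, x axis) of each gene of the MRPL and MRPS families and of 6 lists of mitochondrial gene expression (y axis, number of genes in brackets), with the median as a black bar and points spread vertically for visibility. The medians run from -0.10 for translation factors to -0.01 for the MRPL genes, and RPUSD4 (0.92) is the rightmost point.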

How the data were processed

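RNA of the 6 samples was measured on 1-colour arrays after 3′-based amplification and biotin labelling, per the labels' protocols. Each deposited value is a log2 signal of a probe set, produced by the authors using GCOS and RMA according to the submitters' processing notes. Their versions are unknown here, and the log base was inferred from how large the values are. RMA makes the distributions of arrays alike, so a shift common to most genes would have been removed. Of 49395 probe sets 102 were controls, 45336 had 1 gene symbol in the platform annotation, which can be old, 1275 several and 2682 none. The brightest probe set with 1 symbol over all 6 arrays represented a gene. The number of arrays limits the precision.

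The groups (3 arrays each) were compared with limma 3.58.1 (lmFit, eBayes) in R 4.3.3. P-values are two-sided and Benjamini-Hochberg adjusted over 18265 genes, or over 45336 probe sets where single probe sets are tested, with a threshold of 0.05. Tables were made with Python 3.11.15 and pandas 2.3.3. Members and lists were chosen with earlier results of these data known. Of 123 list entries 105 matched a tested gene. Members past the test and up to 4 genes per list and direction were named, and MRPL10, MRPL11, MRPL12, MRPL58, BABAM2, GABPA and YY1 were added after their values were seen. On data simulated for this comparison with 18265 genes, 48% of 50 genes changed 1.2-fold were recovered, and 96% of 50 changed 1.5-fold. The changed genes were drawn from all genes, and 189 genes passed there, against 4345 in the measured data. These rates therefore do not give the recovery among the members. Alternatives were other probe set rules, scalings, a filter on dim genes, other limma settings, a replicate block and leaving out each array. The comparison with bright genes was added after seeing the data.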

Additional observations from a re-analysis of the deposited data

How the results depend on the processing

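With values as deposited 1789 genes were higher and 2556 lower. Counts and medians of the MRPL and MRPS genes moved most with control scaling. On the 14 hybridization controls 8738 genes were higher and 361 lower, 39 MRPL genes were higher and 0 lower (median 0.20), and 22 MRPS genes were higher and 0 lower (median 0.18). On the 24 poly-A controls 13965 genes were higher and 119 lower, 48 MRPL genes were higher and 0 lower (median 0.32), and 25 MRPS genes were higher and 0 lower (median 0.31). Log2 changes that turned positive on the hybridization controls were MRPL9 0.078, MRPL14 0.070, MRPL17 0.066, MRPL28 0.044, MRPL23 0.035, MRPL38 0.020, MRPS21 0.083, TIGD1 0.15, DAP3 0.086, MRM3 0.026, MTERF3 0.040, MTRF1L 0.0094, OXA1L 0.013, YARS2 0.0072, TFAM 0.046 and ESRRA 0.054. On the poly-A controls they were MRPL9 0.20, MRPL14 0.20, MRPL17 0.19, MRPL28 0.17, MRPL23 0.16, MRPL38 0.15, MRPS21 0.21, MRPS2 0.11, MRPS5 0.10, MRPS25 0.043, TIGD1 0.28, DAP3 0.21, MRM1 0.084, MRM3 0.15, MTERF3 0.16, LRPPRC 0.048, MTRFR 0.11, MTRF1L 0.13, OXA1L 0.14, VARS2 0.021, CARS2 0.076, LARS2 0.12, YARS2 0.13, POLG2 0.037, POLRMT 0.046, TWNK 0.082, TFAM 0.17, PPRC1 0.0084, NRF1 0.094 and ESRRA 0.18. The scaling itself adds the shift; which scaling is nearer to the RNA per cell was not tested. With the probe set next in brightness 1 MRPS gene was higher and 1 lower, and MRPL17 (0.069), MTRF1L (0.10) and NRF1 (0.078) turned positive. A repeated quantile normalization left 1 MRPS gene higher. With trend and robust eBayes 9 MRPL genes were higher and 11 lower, and 8 MRPS genes lower, 40.8% of members against 31.8% of all genes. Tested against a 1.2-fold change, 175 genes were higher and 87 lower, with 1 MRPL gene higher and 0 lower, and 0 MRPS genes higher and 0 lower. Same-numbered arrays did not deviate together (correlations -0.03, -0.13 and -0.09, against -0.02 to 0.11 for arrays with unlike numbers). With 3 arrays per group this cannot show whether the numbers pair them, and the labels do not say. With the replicate number as a block 1095 genes were higher and 1293 lower, 0 MRPL genes were lower and 0 MRPS genes higher, and 3 of 6 rises and 3 of 10 falls of members were called. Leaving out 1 array gave 1176 to 1474 genes higher and 1566 to 1915 lower, 3 to 4 MRPL genes higher and 1 to 2 lower, and 0 to 1 MRPS genes higher and 3 lower. MRPL33, MRPL42 and MRPL50 kept their direction under every alternative run.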

Other observations

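Other ribosomal and mitochondrial gene families, chosen after their values were seen, are given for comparison. Among 69 genes of cytosolic ribosomal proteins 2 rose, RPL35A (log2 change 0.33) and RPL39L (0.18), and 2 fell, RPL27A (-0.45) and RPL29 (-0.12), so that 5.80% passed the limma test where 23.8% of all genes did. Among 83 subunits of the respiratory chain and ATP synthase 11 rose and 6 fell (20.5%), with a median log2 change of 0.02. The rises were led by NDUFA5 (0.44), SDHD (0.34) and NDUFS4 (0.26), and the falls by NDUFS3 (-0.22). NDUFA5, NDUFS4 and NDUFS3 belong to complex I, which takes electrons from NADH, and SDHD anchors complex II in the inner membrane. These directions hold for values as deposited. Control scaling adds 0.21 (hybridization) or 0.33 (poly-A) to every log2 change, which puts RPL29 above 0 under both and NDUFS3 above 0 under poly-A scaling, while RPL27A stays below 0.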
